A study of Rattus norvegicus with 8 samples.

Results

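The cell cycle and cyclin inhibitor genes were examined in sorted rat cells labelled as oligodendrocytes. The set held 40 genes, chosen by name: 6 G1 cyclins and cyclin-dependent kinases (CDKs), 11 S-phase genes, 19 genes of G2 and mitosis, and 4 CDK inhibitors. All 40 were measured, 34 on chip A and 8 on chip B, with Tk1 and Cdkn2c on both, out of 13810 genes that the arrays name through a probe set of a single gene. Chip A covered them with 46 probe sets, and chip B with 10.

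The cells were A2B5/OTMP+ cells labelled as oligodendrocytes, described in the series title as perineuronal, that had been sorted by flow cytometry from rat brain at postnatal day 7. A2B5 is a ganglioside epitope carried by glial precursors. Each of the 2 Affymetrix array types had 4 biological replicates, for 8 arrays in 2 groups of 4. The sample titles number the replicates alike on both types, but do not state that the same RNA was read on both. The series holds 1 cell population, no treatment, no cells outside the sort gate and no control group. Strain, sex and the number of animals behind a replicate were not stated in the labels. A limma p-value here tests whether a gene's mean log2 ratio differs from 0. It sets that mean against the spread between the 4 arrays of a type, moderated over all genes. Each deposited value was a linear ratio whose denominator, called the reference below, the labels do not identify. A ratio of 1, or 0 on the log2 scale, therefore means the signal of that reference, and neither brightness nor detection can be read from it.

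Progression through the cell cycle is driven by CDKs that are switched on by cyclins. D-type cyclins with Cdk4 and Cdk6 act in G1 and lead to release of E2F factors, which turn on genes for DNA replication. B-type cyclins with Cdk1 then bring the cell into mitosis. Inhibitors of the Cip/Kip family (Cdkn1a, Cdkn1b, Cdkn1c) and the INK4 family (such as Cdkn2c) hold CDKs back, and in the oligodendrocyte lineage they are known for their part in the exit of dividing precursors from the cycle before they form myelin.

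Promoter sequences came from RefSeq (GRCr8), where 31 of the 40 genes matched. Each covered 250 bases before to 50 after the gene's start, and both strands were searched for 3 motifs. The cell cycle homology region, or CHR (TTTGAA or TTCGAA), was found in 12 of 16 promoters of G2 and mitotic genes (75.0%), against 19.7% of all 33469 promoters in the table. The CCAAT box was found in 14 of these 16 (87.5%), against 37.5% of all promoters. Among the 9 promoters of S-phase genes, 6 held a CCAAT box (66.7%) and 3 a CHR (33.3%), so neither motif was limited to the mitotic genes. An E2F element (TTTGGCGC, TTTGCCGC, TTTCGCGC or TTTCCCGC) was found in 6 of 9 promoters of S-phase genes (66.7%) and 1 of 16 of G2 and mitotic genes, against 2.14% of all promoters. The 3 CDK inhibitors with a promoter held no CHR and no E2F element in this window, and 1 of them, Cdkn1b, held a CCAAT box. A match is only a run of letters and does not show that a factor binds there.

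The 150 bases before the start are shown for 3 mitotic genes, where CCAAT boxes lie upstream of a CHR, for 3 S-phase genes with an E2F element, and for Cdkn1a, whose stretch holds none of the 3 motifs. Capitals mark every match on either strand, and overlapping matches run together: an E2F element and a CCAAT box in Mcm7, and E2F matches of both strands in Mcm2. The positions are chr8:79981659-79981808 (minus strand) for Ccnb2, chr20:19265143-19265292 (plus) for Cdk1, chr10:84473094-84473243 (minus) for Top2a, chr4:122918095-122918244 (minus) for Mcm2, chr19:13488663-13488812 (plus) for Mcm5, chr12:22163179-22163328 (minus) for Mcm7 and chr20:7150782-7150931 (plus) for Cdkn1a.
Ccnb2: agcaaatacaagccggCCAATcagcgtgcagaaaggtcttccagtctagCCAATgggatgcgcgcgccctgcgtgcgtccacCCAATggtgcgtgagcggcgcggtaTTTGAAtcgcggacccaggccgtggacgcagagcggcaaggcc
Cdk1: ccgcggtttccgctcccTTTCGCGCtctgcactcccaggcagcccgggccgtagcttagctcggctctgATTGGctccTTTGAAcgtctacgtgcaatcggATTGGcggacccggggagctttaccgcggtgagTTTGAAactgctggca
Top2a: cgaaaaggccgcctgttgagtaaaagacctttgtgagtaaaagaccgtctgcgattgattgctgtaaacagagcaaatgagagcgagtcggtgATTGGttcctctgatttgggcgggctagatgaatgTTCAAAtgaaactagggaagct
Mcm2: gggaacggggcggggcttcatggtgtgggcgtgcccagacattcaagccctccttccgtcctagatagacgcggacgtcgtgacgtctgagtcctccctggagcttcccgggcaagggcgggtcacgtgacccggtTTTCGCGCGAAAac
Mcm5: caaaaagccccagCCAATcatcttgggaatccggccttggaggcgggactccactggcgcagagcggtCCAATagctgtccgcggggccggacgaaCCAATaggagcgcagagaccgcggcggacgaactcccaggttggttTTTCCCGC
Mcm7: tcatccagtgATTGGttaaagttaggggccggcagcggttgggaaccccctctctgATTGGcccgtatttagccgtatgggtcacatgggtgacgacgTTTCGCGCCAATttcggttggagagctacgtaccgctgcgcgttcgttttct
Cdkn1a: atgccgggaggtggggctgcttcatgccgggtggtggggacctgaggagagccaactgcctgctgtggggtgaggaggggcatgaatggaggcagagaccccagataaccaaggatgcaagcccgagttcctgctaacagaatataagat

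On chip A 7 of the 34 genes differed from the reference: 1 was higher, Ccnd2, and 6 were lower, Cdk6, Cdkn1a, Pcna, Cdkn1c, Mcm3 and Tk1 (limma, Benjamini-Hochberg adjusted p under 0.05, two-sided, mean of a gene's probe sets). Of all 10411 genes of chip A, 42.1% were called, 9.17% higher and 32.9% lower. On chip B 1 of 8 genes was called, Cdkn2c, which was lower, where 35% of 5667 genes were called, 30.9% lower and 4.13% higher. The median log2 ratio of the 34 genes was -0.20, near the -0.14 of all chip A genes. Because most genes lay under a ratio of 1, each array was also centred on its own median ratio, which was 0.903 to 0.946 for chip A arrays and 0.888 to 0.967 for those of chip B. Against the array median, 1 chip A gene was higher (Ccnd2) and 3 were lower (Cdk6, Cdkn1a and Pcna), where 36.9% of all genes were called, 12.3% higher and 24.6% lower. Higher calls then made up 33.4% of all chip A calls, compared with 21.8% against a ratio of 1. On chip B Cdkn2c stayed lower against the array median, where 29.9% of all genes were called (4.98% higher and 25% lower) and higher calls made up 16.6% of calls, compared with 11.8%. Only the calls of Ccnd2, Cdk6, Cdkn1a and Cdkn2c (chip B) are therefore read as differences below, beside Pcna with the limits given there. In sorted RNA, fewer cells in a phase and less RNA per cell cannot be told apart.

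**Figure D1:**
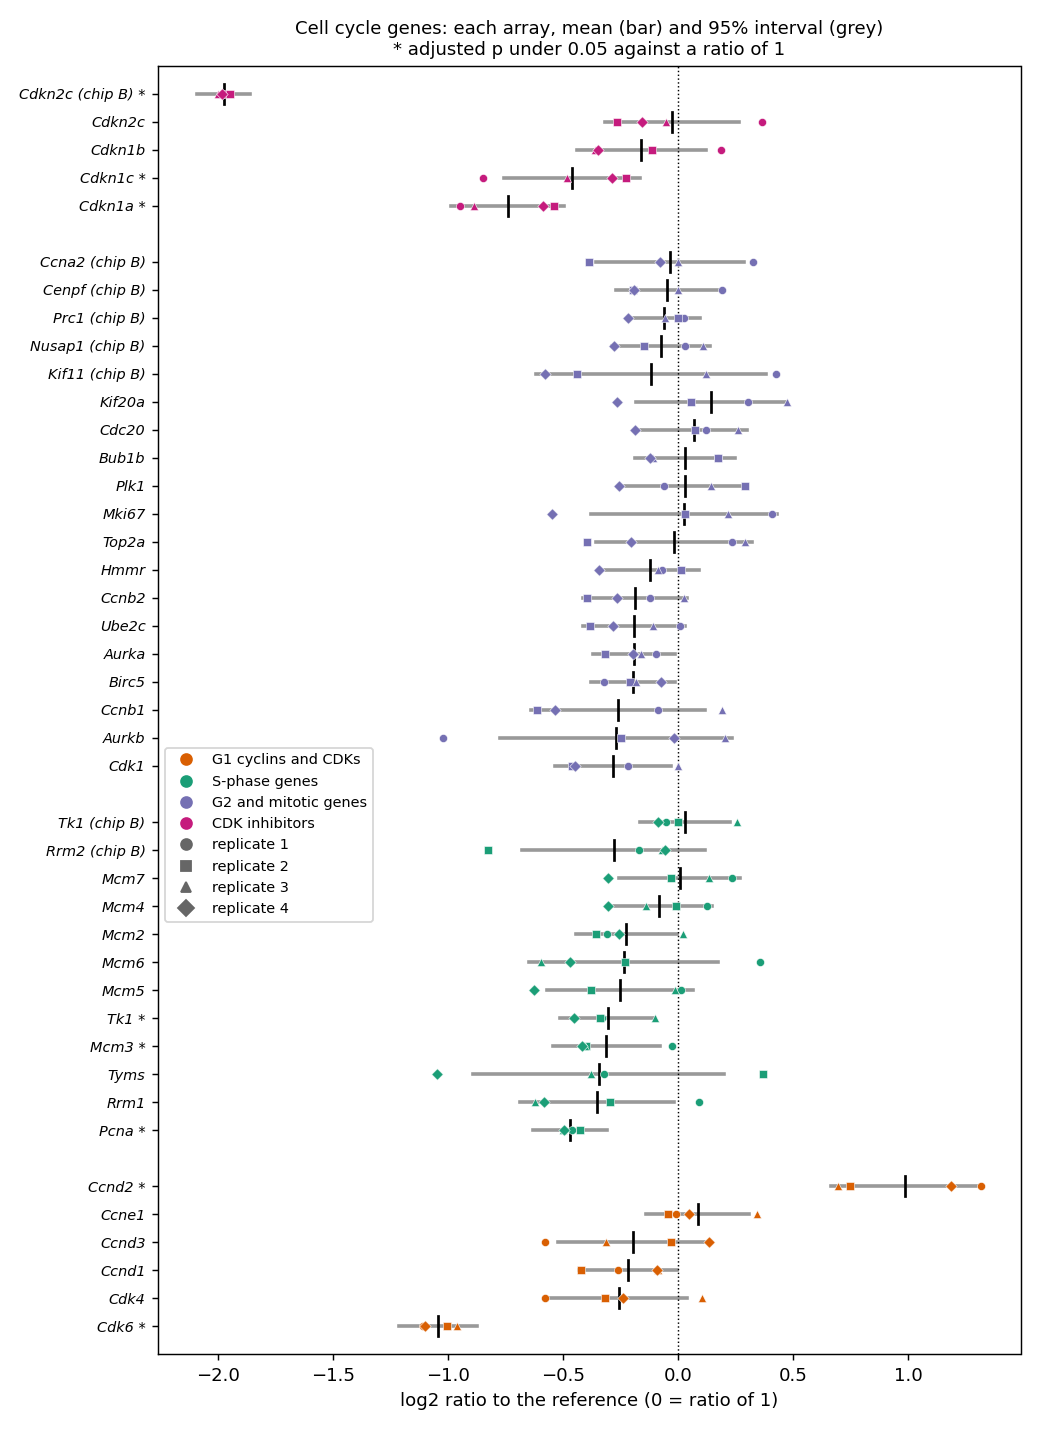
Log2 ratio to the reference for each cell cycle gene, by group, with the 4 arrays as symbols, the mean as a black bar and limma's 95% interval as a grey line; an asterisk marks an adjusted p under 0.05 against a ratio of 1. Ccnd2 stands to the right with all 4 arrays between ratios of 1.62 and 2.49, Cdk6 and the chip B probe set of Cdkn2c stand to the left, and the G2 and mitotic genes lie about 0.

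Among the G1 genes, cyclin D2 stood out. Ccnd2, a D-type cyclin, had ratios of 2.49, 1.68, 1.62 and 2.28 in replicates 1 to 4, a mean log2 ratio of 0.99 ± 0.31 (SD, n = 4; 95% interval 0.67 to 1.31; limma adjusted p = 0.00218), or 1.98-fold the reference. All 4 arrays lay well above 1, and the call held in all 12 alternatives tried on chip A (limma adjusted p from 0.00222 to 0.0117). Several of these could not move it. Ccnd2 has 1 probe set and no ratio under the floor of 0.25, so changing the gene summary, probe sets or floor left its values unchanged. The other D-type cyclins lay lower in every array. Ccnd1 had ratios of 0.834, 0.746, 0.942 and 0.937 (mean log2 ratio -0.22 ± 0.16, limma adjusted p = 0.0945), and Ccnd3 had 0.670, 0.978, 0.805 and 1.096 (-0.20 ± 0.31, adjusted p = 0.274). None of these arrays reached the lowest Ccnd2 ratio. Of the 3 probe sets of Ccnd1, 1 was lower by itself (-0.32 ± 0.14, limma adjusted p = 0.0262).

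The log2 ratio of Ccnd2 exceeded that of Ccnd1 by 1.20 ± 0.33 and that of Ccnd3 by 1.18 ± 0.49 (SD, n = 4 arrays), with the sign the same in 4 of 4. The exact sign-flip permutation test (two-sided) gave p = 0.125 for each, the smallest that 4 arrays allow (0.175 after Benjamini-Hochberg adjustment over 7 pairs within families). These are differences between ratios, each to its own reference, and do not rank the transcripts by level. Between Ccnd1 and Ccnd3 the difference was -0.02 ± 0.34, positive in 2 of 4 arrays (exact permutation p = 1).

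Of the CDK partners of the D-type cyclins, Cdk6 was lower than the reference. Cdk6 had ratios of 0.464, 0.498, 0.513 and 0.467, a mean log2 ratio of -1.04 ± 0.07 (95% interval -1.21 to -0.87; limma adjusted p = 0.000192). It was called in all 12 alternatives on chip A, with the same limit as for Ccnd2. The 4 arrays were nearly equal. That evenness was shared by other low genes: 311 genes had a mean within 0.1 of that of Cdk6, their median SD was 0.073, and 3 of them belong to a panel of genes of other organs (digestive enzymes, milk proteins, protamines and the like). Of the 67 panel genes measured on chip A, 38 were lower than a ratio of 1 (56.7%), against 32.9% of all genes. The panel's median log2 ratio was -0.37, above the mean of Cdk6. The 5th to 95th percentile of its gene means, -1.35 to 0.13, held the mean of Cdk6. The panel's median SD was 0.078, against 0.204 for all genes. Whether the single Cdk6 probe set detected its transcript was not tested.

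Cdk4, the other G1 kinase, had ratios of 0.669, 0.802, 1.07 and 0.847 (-0.26 ± 0.28, limma adjusted p = 0.139). It lay above Cdk6 in 4 of 4 arrays, by 0.79 ± 0.23 on the log2 scale (exact permutation p = 0.125, 0.175 over the 7 pairs). Cyclin E1, which drives entry into S phase with Cdk2, was near the reference, with Ccne1 ratios of 0.993, 0.97, 1.27 and 1.03 (0.08 ± 0.18, limma adjusted p = 0.496).

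The share of S-phase genes called lower on chip A was near that of all genes. On chip A 3 of 10 were lower and 0 higher (limma; 5 and 0 at an unadjusted p under 0.05), beside 32.9% and 9.17% of all genes. Against the array median 1 of 10 was lower, Pcna. Their median log2 ratio was -0.28, against -0.14 for all genes, and ran from -0.47 for Pcna to 0.01 for Mcm7. Pcna, the sliding clamp of DNA polymerase, had ratios of 0.726, 0.744, 0.706 and 0.709 (-0.47 ± 0.03, limma adjusted p = 0.00259). The 4 arrays agreed within a narrow band: of 1289 genes with a mean within 0.1 of that of Pcna, 4 were more even. Of the same 1289 genes, 12 belong to the panel of genes of other organs. Whether the single Pcna probe set detected its transcript was not tested. Pcna was called in 11 of 12 alternatives, and was lost when arrays were centred on the panel median (-0.16, adjusted p = 0.152).

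The calls of Mcm3 and Tk1 were small and held in 7 of 12 alternatives each. Mcm3, a subunit of the replicative helicase, had ratios of 0.981, 0.757, 0.755 and 0.749 (-0.31 ± 0.19, limma adjusted p = 0.0420). Replicate 1 lay near the reference and the other arrays below it, close together. The call was lost without replicate 2 (adjusted p = 0.122), 3 (0.120) or 4 (0.134), and against the array median (0.173). Tk1, the thymidine kinase of the salvage pathway, had mean ratios of 0.794, 0.791, 0.932 and 0.730 over its chip A probe sets (-0.31 ± 0.15, limma adjusted p = 0.0306). The call was lost without replicate 1 (0.0971), 2 (0.0900) or 4 (0.107), and against the array median (0.0899). On chip B the Tk1 ratios were 0.964, 1, 1.20 and 0.940 (0.03 ± 0.16, adjusted p = 0.786).

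The other S-phase genes did not pass. For the helicase subunits, mean log2 ratios were -0.22 ± 0.17 for Mcm2, -0.08 ± 0.18 for Mcm4, -0.25 ± 0.31 for Mcm5, -0.24 ± 0.42 for Mcm6 and 0.01 ± 0.23 for Mcm7 (limma adjusted p from 0.0925 to 0.961). Mcm6 ran from 0.661 in replicate 3 to 1.28 in replicate 1. Tyms varied most between arrays. Tyms, thymidylate synthase, had ratios of 0.799, 1.29, 0.769 and 0.483 (-0.35 ± 0.58), Rrm1, a ribonucleotide reductase subunit, 1.07, 0.814, 0.650 and 0.668 (-0.35 ± 0.33), and its partner Rrm2, on chip B, 0.889, 0.564, 0.954 and 0.960 (-0.28 ± 0.37). Their limma adjusted p-values were 0.259, 0.0858 and 0.222. Replicate 1 gave the highest ratio for Rrm1 and replicate 2 for Tyms, while replicate 2 gave the lowest for Rrm2. Without replicate 1 Mcm6 (-0.43, adjusted p = 0.0369) and Rrm1 (-0.50, 0.0229) were lower, and without replicate 2 so was Tyms (-0.58, 0.0455).

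None of the G2 and mitotic genes passed the test. The limma fit called 0 of 14 on chip A, where 42.1% of all genes were called. It likewise called 0 of 5 on chip B, where 35% of all genes were. At an unadjusted p under 0.05, 3 chip A genes were lower (Cdk1, Aurka and Birc5) and 0 chip B genes. Medians were -0.16 and -0.06, and means ran from -0.28 for Cdk1 to 0.14 for Kif20a. For all 14 and all 5 the 95% interval of the mean lay within a 2-fold difference from the reference, as it did for 82.4% of all genes on chip A and 83.2% on chip B. A p that misses the threshold does not show that a gene equalled the reference.

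The proliferation marker Mki67, which encodes the Ki-67 antigen, had ratios of 1.33, 1.02, 1.16 and 0.683 (0.03 ± 0.41; 95% interval -0.38 to 0.43; limma adjusted p = 0.913). Replicate 4 was low and the other arrays at or above 1. Top2a, the topoisomerase that untangles sister chromatids, had 1.18, 0.760, 1.22 and 0.868 (-0.02 ± 0.33, adjusted p = 0.925). Replicates 1 and 3 were above 1 and the others under it. Cdk1, the mitotic kinase, had 0.861, 0.726, 1 and 0.733 (-0.28 ± 0.22, adjusted p = 0.0730), and it was lower without replicate 3 (-0.38, 0.0357).

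The B-type cyclins, which activate Cdk1, had mean log2 ratios of -0.26 ± 0.38 (Ccnb1) and -0.19 ± 0.18 (Ccnb2), and cyclin A2 on chip B -0.04 ± 0.29, with limma adjusted p-values of 0.221, 0.152 and 0.839. The mitotic kinases lay at -0.27 ± 0.53 for Aurkb, -0.19 ± 0.09 for Aurka and 0.03 ± 0.24 for Plk1. Aurkb ran from 0.492 in replicate 1 to 1.15 in replicate 3, the widest range of the group on the log2 scale. The spindle checkpoint kinase gene Bub1b stood at 0.03 ± 0.17, and the anaphase-promoting complex genes Cdc20, its activator, and Ube2c, its ubiquitin-conjugating enzyme, at 0.07 ± 0.19 and -0.19 ± 0.18. Birc5, which encodes survivin of the chromosomal passenger complex, stood at -0.20 ± 0.10. The motor and spindle genes Kif20a (0.14 ± 0.32), Hmmr (-0.12 ± 0.15), Kif11 (-0.12 ± 0.47), Prc1 (-0.06 ± 0.11), Nusap1 (-0.07 ± 0.18) and the kinetochore gene Cenpf (-0.05 ± 0.18) did not pass either (limma adjusted p from 0.301 to 0.683), the last 4 of them on chip B.

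Centring on the genes of other organs changed the calls. When each chip A array was centred on the median of that panel, the mitotic genes Bub1b (0.35, limma adjusted p = 0.0414), Cdc20 (0.38, 0.0257), Kif20a (0.46, 0.0380), Plk1 (0.35, 0.0341) and the G1 gene Ccne1 (0.40, 0.0167) joined Ccnd2 as higher, 6 of 34 in all, where 32.7% of all genes were higher. Cdk6 and Cdkn1a stayed lower, beside 16% of all genes. Nothing about the members is read from a share under that of all genes.

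Most mitotic genes shared their highest pair of replicates. On chip A the arrays with the highest ratios were those of replicates 1 and 3 for 9 of 14 genes: Mki67, Top2a, Ccnb1, Ccnb2, Cdk1, Aurka, Cdc20, Kif20a and Ube2c. Among all chip A genes this pair ranked highest in 15.4%, while the most frequent pair was 2 and 3 (31.5%). On chip B the same pair ranked highest for 4 of 5 mitotic genes, Ccna2, Cenpf, Kif11 and Nusap1, against 13.7% of all genes, where the pair 3 and 4 led (34.6%). In replicate 3 the ratio was exactly 1 for Ccna2 and Cenpf, and for 1 probe set each of Kif11 and Nusap1. A ratio of exactly 1 in any array occurred in 23.0% of chip B probe sets, against 0.914% on chip A. What such a value stands for was not tested, and the rank of replicate 3 on chip B rests partly on it. The chip B genes are other genes on other arrays. The sample titles number the replicates alike on both array types, but do not state that both read the same 4 samples. This pattern was noticed in these values and is a description without a test.

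The size of this spread was modest. The median deviation of the 14 genes from their own means was 0.08, -0.05, 0.19 and -0.18 in replicates 1 to 4 on the log2 scale, against -0.04, 0.03, 0.05 and -0.05 for all genes. On chip B it was 0.24, -0.15, 0.05 and -0.15, against -0.04, -0.02, 0.03 and 0.02. In the S-phase genes another pair was most frequent, with replicates 1 and 2 highest for 6 of 10 on chip A (13.4% of all genes) and median deviations of 0.22, -0.02, -0.03 and -0.23. In a wider list of other G2 and mitotic genes the pair 1 and 3 ranked highest for 7 of 25 genes of chip A. There the pair 1 and 2 was more frequent, with 8 of 25. On chip B the pair 1 and 3 ranked highest for 9 of 22 and the pair 1 and 2 for 4.

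Markers of other cell types moved between replicates too. The pair 1 and 3 was highest for 6 of 10 microglia and macrophage genes, whose median log2 ratios were -0.54, -0.66, -0.03 and -0.73, and for 5 of 10 astrocyte genes, with medians of 1.40, 0.89, 1.51 and 1.08. It was also highest for 4 of 7 genes of the oligodendrocyte lineage and 5 of 10 genes of neural progenitors and radial glia. Among all chip A genes the share was 15.4%. In other chip A lists the pair was highest for 3 of 9 neuron, 1 of 8 myelin and 2 of 8 endothelial and mural genes. For ependyma and choroid plexus it was 0 of 4, and for erythroid genes 0 of 2. The part of these markers in the spread of the mitotic genes was not tested.

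**Figure D2:**
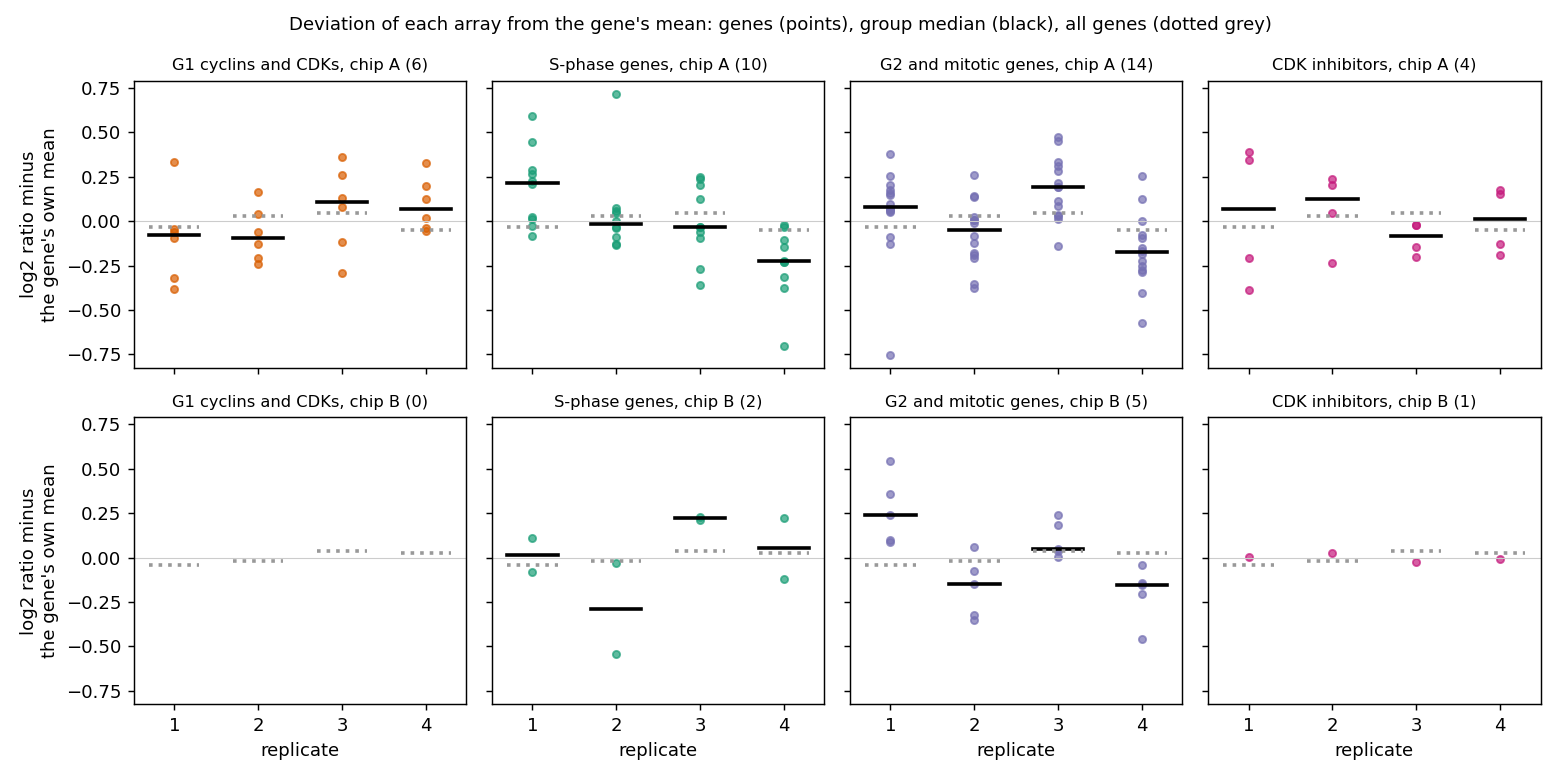
Log2 ratio of each gene minus that gene's own mean over 4 arrays, by replicate (x axis), for the 4 gene groups (columns) on chip A (top) and chip B (bottom); points are genes, black bars the group's median and dotted grey bars the median of all genes. The G2 and mitotic genes have their highest medians in replicates 3 (0.19) and 1 (0.08) on chip A and in replicate 1 (0.24) on chip B, with replicate 4 at -0.18 and -0.15.

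Among the CDK inhibitors, p21 was the one whose call held on chip A. There 2 of 4 were lower, Cdkn1a and Cdkn1c, and 0 higher (limma; also 2 and 0 at an unadjusted p under 0.05), beside 32.9% and 9.17% of all genes, and the median was -0.31. Against the array median 1 of 4 was lower, Cdkn1a. Cdkn1a encodes p21, an inhibitor induced by p53. Its mean ratios over a pair of probe sets were 0.518, 0.688, 0.541 and 0.665, a mean log2 ratio of -0.74 ± 0.21 (95% interval -0.99 to -0.50; limma adjusted p = 0.00225), called in all 12 alternatives on chip A, of which 1 takes each gene's probe set of lowest p. The probe sets differed. The first had 0.441, 0.464, 0.466 and 0.433 (-1.15 ± 0.05, limma adjusted p = 0.000141), as even as Cdk6, while the other had 0.608, 1.02, 0.627 and 1.02 (-0.33 ± 0.42, adjusted p = 0.181). The call of the gene thus came mainly from the even probe set.

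Cdkn1b encodes p27, the inhibitor best known for timing cycle exit in oligodendrocyte precursors. Its ratios were 1.14, 0.924, 0.778 and 0.786 (-0.16 ± 0.26; 95% interval -0.44 to 0.12; limma adjusted p = 0.306). Replicate 1 was above the reference and the rest under it. Cdkn1c, which encodes p57, had 0.556, 0.855, 0.715 and 0.820 (-0.46 ± 0.28, limma adjusted p = 0.0266). That call held in 8 of 12 alternatives. It was lost without replicate 1 (0.0590) or 3 (0.0765), against the array median (0.0774) and against the panel median (0.275). Within the Cip/Kip family, Cdkn1b lay above Cdkn1a in 4 of 4 arrays (0.58 ± 0.39), Cdkn1c above Cdkn1a in 4 of 4 (0.28 ± 0.13), and Cdkn1b above Cdkn1c in 3 of 4 (0.30 ± 0.49). The exact permutation p was 0.125, 0.125 and 0.25, and 0.175, 0.175 and 0.292 over the 7 pairs.

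Cdkn2c, which encodes the INK4 inhibitor p18, gave different results on the array types. On chip A its ratios were 1.29, 0.832, 0.965 and 0.898 (-0.03 ± 0.27, limma adjusted p = 0.873). On chip B they were 0.255, 0.259, 0.25 and 0.253 (-1.98 ± 0.02, adjusted p = 4.63e-05), the lowest mean of all the genes described here. The chip B probe set carries the suffix that Affymetrix gives to probe sets whose probes may match other transcripts. Its SD was at the 1.57th percentile of all chip B genes, and of 9 genes with a mean within 0.1 of it, 2 were more even. The difference between array types was not tested, and the values of neither can be preferred from the ratios.

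**Figure D3:**
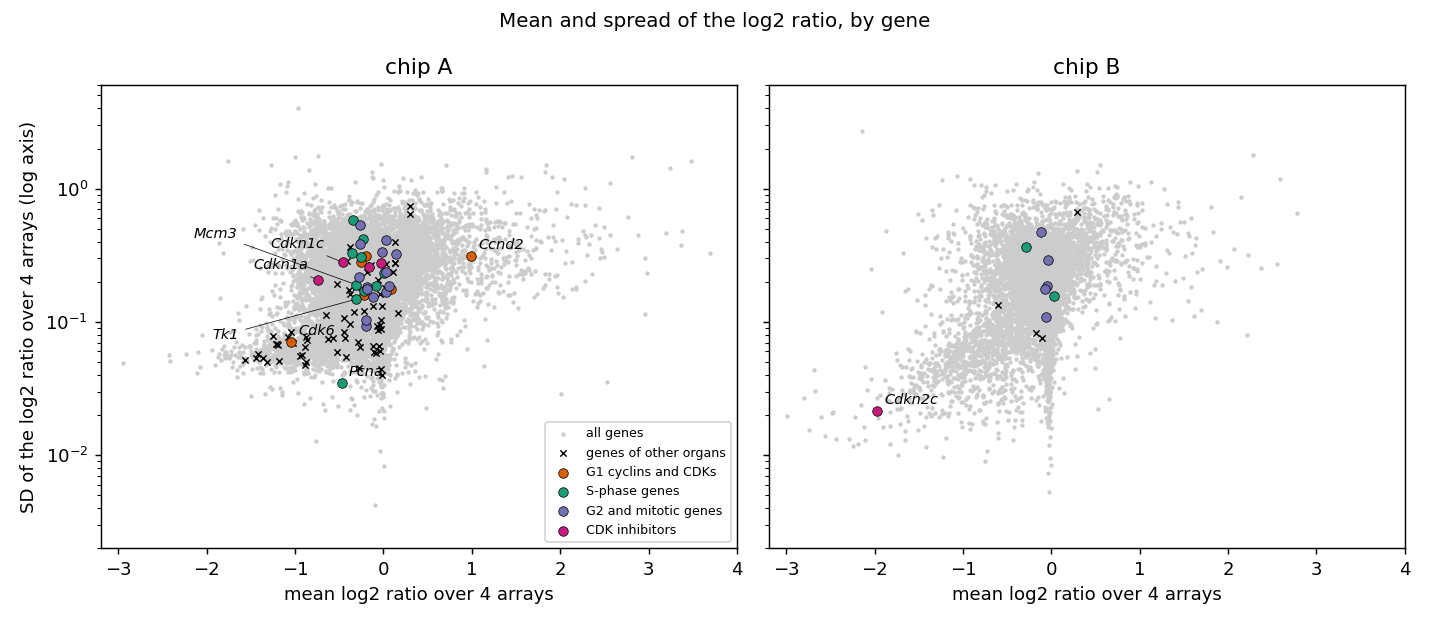
Mean (x axis) and SD on a log axis (y axis) of the log2 ratio over 4 arrays, for every gene of chip A (left) and chip B (right), with cell cycle genes coloured by group, genes of other organs as crosses and called cell cycle genes named. Cdk6 (-1.04, SD 0.07) lies among the low, even genes, and 3 of the 67 genes of other organs have a mean within 0.1 of its own. Cdkn2c (-1.98, SD 0.02) lies at the corresponding end on chip B, and Ccnd2 (0.99, SD 0.31) is apart from the other members.

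Several other genes were read by probe sets that differed. For 10 genes with more than 1 probe set on an array type, the range between the probe-set means ran from 0.07 (Nusap1) to 1.08 (Cdc20). Cdc20 had 5 probe sets, from -0.31 ± 0.16 (0.789, 0.743, 0.950 and 0.758; limma adjusted p = 0.0367) to 0.77 ± 0.37 (1.76, 2.13, 1.89 and 1.17; adjusted p = 0.0128). Those extremes were called in opposite directions, and their mean lies near 0. The chip A probe sets of Tk1 stood at -0.70 ± 0.26 (adjusted p = 0.00642) and 0.09 ± 0.16 (0.467). Those of Ccnb1 stood at -0.54 ± 0.52 and 0.02 ± 0.30, and those of Kif11 on chip B at -0.47 ± 0.58 and 0.24 ± 0.40. In both Ccnb1 probe sets replicate 3 was highest and replicate 1 next, while the order of replicates 2 and 4 differed.

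**Figure D4:**
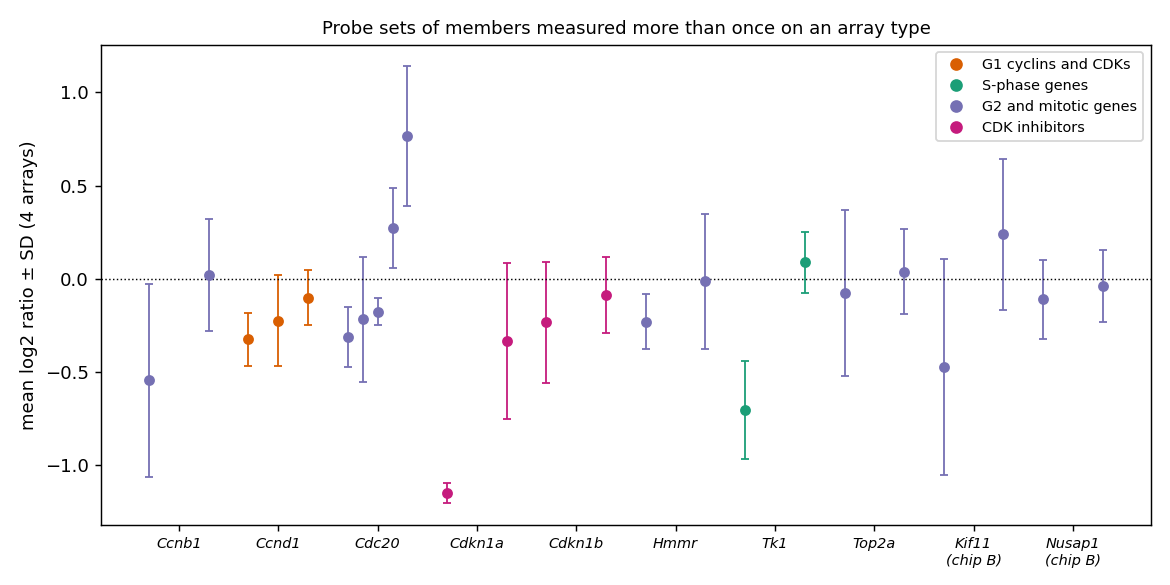
Mean log2 ratio ± SD over 4 arrays for each probe set (points) of the 10 cell cycle genes measured by more than 1 probe set on an array type. The widest ranges are those of Cdc20 (-0.31 to 0.77), Cdkn1a (-1.15 to -0.33) and Tk1 (-0.70 to 0.09).

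In a wider set of 132 cell cycle genes outside the 40, chip A had 2 higher and 23 lower of 81 measured, while chip B had 1 higher and 9 lower of 49 (limma; 9.17% and 32.9% of all genes on chip A, 4.13% and 30.9% on chip B). Against the array median chip A had 2 higher and 11 lower, while chip B had 1 higher and 6 lower. The higher genes were Orc4, a subunit of the origin recognition complex (0.71 ± 0.37, limma adjusted p = 0.0120), and the condensin gene Ncapd2 (0.45 ± 0.17, 0.00908) on chip A, and the dUTPase gene Dut on chip B (0.40 ± 0.19, 0.0220). On chip A Dut was lower (-0.38 ± 0.26, 0.0412), and Orc4 on chip B stood at -0.08 ± 0.28. The lowest called genes were Mnat1, of the CDK-activating kinase (-1.04 ± 0.24), the replication protein gene Rpa3 (-0.996 ± 0.34) and the INK4 gene Cdkn2a (-0.80 ± 0.06) on chip A, and geminin, Gmnn (-0.87 ± 0.14), the polymerase gene Pole2 (-0.77 ± 0.21) and the INK4 gene Cdkn2d (-0.75 ± 0.21) on chip B (limma adjusted p from 0.000427 to 0.0034).

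By list on chip A, 0 of 11 other inhibitors and antiproliferative genes were higher and 5 lower, 0 and 1 of 11 RB and E2F genes, 0 and 4 of 7 other G1 regulators, 1 and 8 of 27 other replication genes, and 1 and 5 of 25 other G2 and mitotic genes (limma), beside 9.17% and 32.9% of all genes. At an unadjusted p under 0.05 the higher counts were the same and the lower counts were 8, 1, 6, 13 and 5. Against the array median 2, 1, 3, 2 and 3 were lower, beside 24.6% of all genes, with the same higher counts. Their medians were -0.35, -0.02, -0.37, -0.18 and -0.04.

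The labelled cell type was checked against markers. On chip A 4 of 7 genes of the oligodendrocyte lineage were higher than the reference (Pdgfra, Bcan, Cspg5 and Ptprz1), beside 9.17% of all genes, 0 of 8 myelin genes (1 against the array median) and 7 of 10 astrocyte genes, among them Aldh1l1 at 2.50 ± 0.52. The lineage factor gene Olig1 stood at -0.07 ± 0.50, and Olig2, on chip B, was lower at -0.23 ± 0.07 (limma adjusted p = 0.0247). Neuron markers were higher for 4 of 9 on chip A, with Elavl4 at 1.81 ± 0.68, Snap25 at 1.70 ± 0.70, Rbfox3 at 1.01 ± 0.14 and Gad1 at 0.68 ± 0.34. Tubb3, Map2, Nefl, Nefm and Slc17a7 were not called there. Syt1, on chip B, was lower at -0.45 ± 0.03 (limma adjusted p = 0.00145). Of 4 ependyma and choroid plexus genes 2 were higher, Ttr (0.99 ± 0.20) and Folr1 (0.97 ± 0.64), and 1 lower. Of 10 genes of neural progenitors and radial glia 4 were higher and 1 lower, Sox2 (-0.29 ± 0.08, limma adjusted p = 0.0201). Against the array median 6 of these progenitor genes were higher and 0 lower, and 8 of the 10 astrocyte genes were higher. Of 10 microglia and macrophage genes 0 were higher and 6 lower (1 against the array median), beside 32.9% of all genes lower against a ratio of 1. Higher markers were thus not limited to the labelled lineage. Ratios cannot show whether any marker was detected. Which of these cells carried the higher Ccnd2 was not tested.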

How the data were processed

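Sorted A2B5/OTMP+ cells were profiled on 2 Affymetrix array types with 4 replicates each. RMA is the tool named in the submitters' processing notes, without a version. The deposited values are linear ratios, per the file values, to a reference not given in the sources used here, nor is how the ratio was made. Array replicates have no counts, so their number limits the precision.

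Ratios were put on the log2 scale. Control probe sets were left out (57 on each type), and those annotated to exactly 1 gene in the platform annotation were averaged per gene: 12783 for 10411 genes on chip A, and 7564 for 5667 genes on chip B. Each array type was fitted alone with limma 3.58.1 in R 4.3.3 (an intercept, eBayes, two-sided against 0, Benjamini-Hochberg over all its genes, threshold 0.05). The fit was checked on simulated data. Alternatives changed the centring, the gene summary, the variance prior, the probe sets used, a pseudocount of 0.1, a floor of 0.25 and the replicates. The panel of genes of other organs had 76 probe sets on chip A but 4 on the other type, too few for centring there, where 20 were required. Every member is accounted for, and of the wider list the 3 highest and 3 lowest called genes per array type were named. The members and lists were chosen with earlier results of these data known.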

Additional observations from a re-analysis of the deposited data

Results flagged for a closer look

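Among 42 gene and array type combinations, 2 had an array far from the other 3 of its group by Dixon's test, where chance gives about 1 in 20. Mcm3 on chip A had a ratio of 0.981 in replicate 1, against 0.757, 0.755 and 0.749 in the others. Rrm2 on chip B had 0.564 in replicate 2, against 0.889, 0.954 and 0.960.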

How the results depend on the processing

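The calls of Ccnd2, Cdk6 and Cdkn1a held in all 12 alternatives on chip A, and that of Cdkn2c in all 10 that kept its probe set on chip B. Some members, such as Ccnd2, Cdk6, Pcna and Cdkn2c (chip B), have 1 probe set and no ratio under the floor. For these, alternatives that changed only the gene summary, the probe sets kept or the floor left the values unchanged. Without probe sets of shared suffix, Cdkn2c had none on chip B, so 0 of the remaining 6 genes were called there and 0 were lower (limma; 0 at an unadjusted p under 0.05). With arrays centred on their medians, 4 members were called on chip A instead of 7, with 3 lower, and the median of the CDK inhibitors moved to -0.19. With centring on the panel median, 2 members were lower and 6 higher, beside 1670 and 3404 of all genes (3426 and 955 against a ratio of 1). The medians were then 0.11 for G1 genes, 0.037 for S-phase genes, 0.16 for G2 and mitotic genes and 0.0061 for CDK inhibitors, and Mcm3 (0.0034) and Tk1 (0.0096) turned positive without a call. In the fit of single probe sets, which takes each gene's probe set of lowest p, 2 members were higher, Ccnd2 and Cdc20, though another Cdc20 probe set was lower. Ccnd1 was lower there (-0.32, limma adjusted p = 0.0262). The median of probe sets, the trended and robust prior, the pseudocount and the floor changed no member's call. With 1 replicate left out, 5 to 8 members were called on chip A (4 to 7 lower, 1 higher) and 1 on chip B, and the medians ran from -0.26 to -0.11 for G1 genes, -0.35 to -0.19 for S-phase genes, -0.17 to -0.10 for G2 and mitotic genes and -0.36 to -0.27 for CDK inhibitors. No paired analysis was possible because there is 1 cell population, and the array types are separate tables that were tested only within each. With 4 arrays and no signal over background, undetected probe sets cannot be told from even ones.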
